A study of Homo sapiens with 10 samples.

Results

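The collagen genes were taken as the rows of the RNA-Seq table whose symbol is COL, a number, the letter A and a number. This rule found 34 of the 13279 genes in the table. Of these, 9 were fibrillar collagens, 6 were the type IV chains of basement membranes and 19 belonged to other types. The Ribo-Seq table listed 25 of the 34, and 9 were listed in the RNA-Seq table alone. A level of at least 5 FPKM (fragments per kilobase of transcript, scaled to the reads of the library) in at least 1 library of each assay was reached by 20 collagens, made up of 7 fibrillar, 3 basement membrane and 10 other chains. In the control libraries of both assays 17 of them reached it. COL5A3, COL11A1 and COL4A5 passed only through treated Ribo-Seq libraries, and their control Ribo-Seq levels were 2.60, 4.71 and 2.44 FPKM. The 14 collagens below the filter had at most 1.73 FPKM in any RNA-Seq library.

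Collagens are secreted proteins whose chains wind around each other into a rope-like helix of repeated glycine, proline and hydroxyproline. Fibrillar collagens assemble into the cables of connective tissue, type IV collagen forms the sheet of basement membranes, and the other types bead, coat, anchor or link these structures. The chains are made on ribosomes bound to the endoplasmic reticulum and are hydroxylated, folded and exported before enzymes trim and crosslink them outside the cell. Fibroblasts are their main source, and type I is the chief collagen of most connective tissues.

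BJ cells, a line of human fibroblasts immortalised with hTERT (the catalytic subunit of telomerase), were profiled as a control and after 2, 4, 6 and 19 h of nutlin-3a, a drug that keeps MDM2 off p53 and thereby activates it. RNA-Seq of poly(A) RNA gave transcript levels, and Ribo-Seq, the sequencing of mRNA stretches shielded by ribosomes, gave ribosome density. All groups share the cell line, the immortalisation and growth in serum, so a single line is the only model of a fibroblast here. Each of the 10 groups held 1 library, no difference has a replicate check, no p-value was computed, and the errors given are counting errors.

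The RNA-Seq libraries held 23845559 to 27554288 reads and the Ribo-Seq libraries 7744900 to 14460726. All 8 fibroblast markers had at least 5 FPKM in the control, whereas the epithelial, endothelial and melanocyte markers in the table (1 of 4, 1 of 3 and 2 of 3 on the lists) were below 1 FPKM in every RNA-Seq library. Of the leukocyte markers, PTPRC and CD14 stayed below 1 FPKM and CD68 did not. CDKN1A, the p53 target that halts the cell cycle, was at 68.6 FPKM in the control RNA-Seq library and at 212, 915, 1204 and 1316 FPKM at 2, 4, 6 and 19 h, so the treatment labels had their counterpart at each time. By transcript length, the Ribo-Seq library of 4 h stood apart from those of 2, 6 and 19 h. With 1 library at each time, an effect of time and one of the library cannot be told apart. In those of 2, 6 and 19 h, translational efficiency (TE, the log2 of Ribo-Seq over RNA-Seq FPKM) was higher for long transcripts relative to the control, by 0.10, 0.16 and 0.15 for each doubling of length over 7001 genes. In that of 4 h the same slope was -0.019. The tested collagens are long, with a median of 6382 nt against 2600 nt for all tested genes. For this reason the collagen results below are also given against the 2 h and the 4 h libraries, and with the length trend taken off.

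The type I chains dominated the collagen pool. COL1A1 stood at 1642 FPKM in the control RNA-Seq library and at 1558, 1634, 1501 and 2923 FPKM at 2, 4, 6 and 19 h. COL1A2, its partner chain, stood at 1807, 1691, 1633, 2141 and 3011 FPKM in the same order. The highest library of both was thus that of 19 h, with the earlier ones close together apart from COL1A2 at 6 h. By RNA-Seq FPKM, COL1A1 ranked 11 in the control and 5 at 19 h among all genes of the table. In the Ribo-Seq libraries its ranks were 65, 18, 76, 7 and 6 in order of time. The Ribo-Seq ranks did not move steadily with time.

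**Figure D1:**
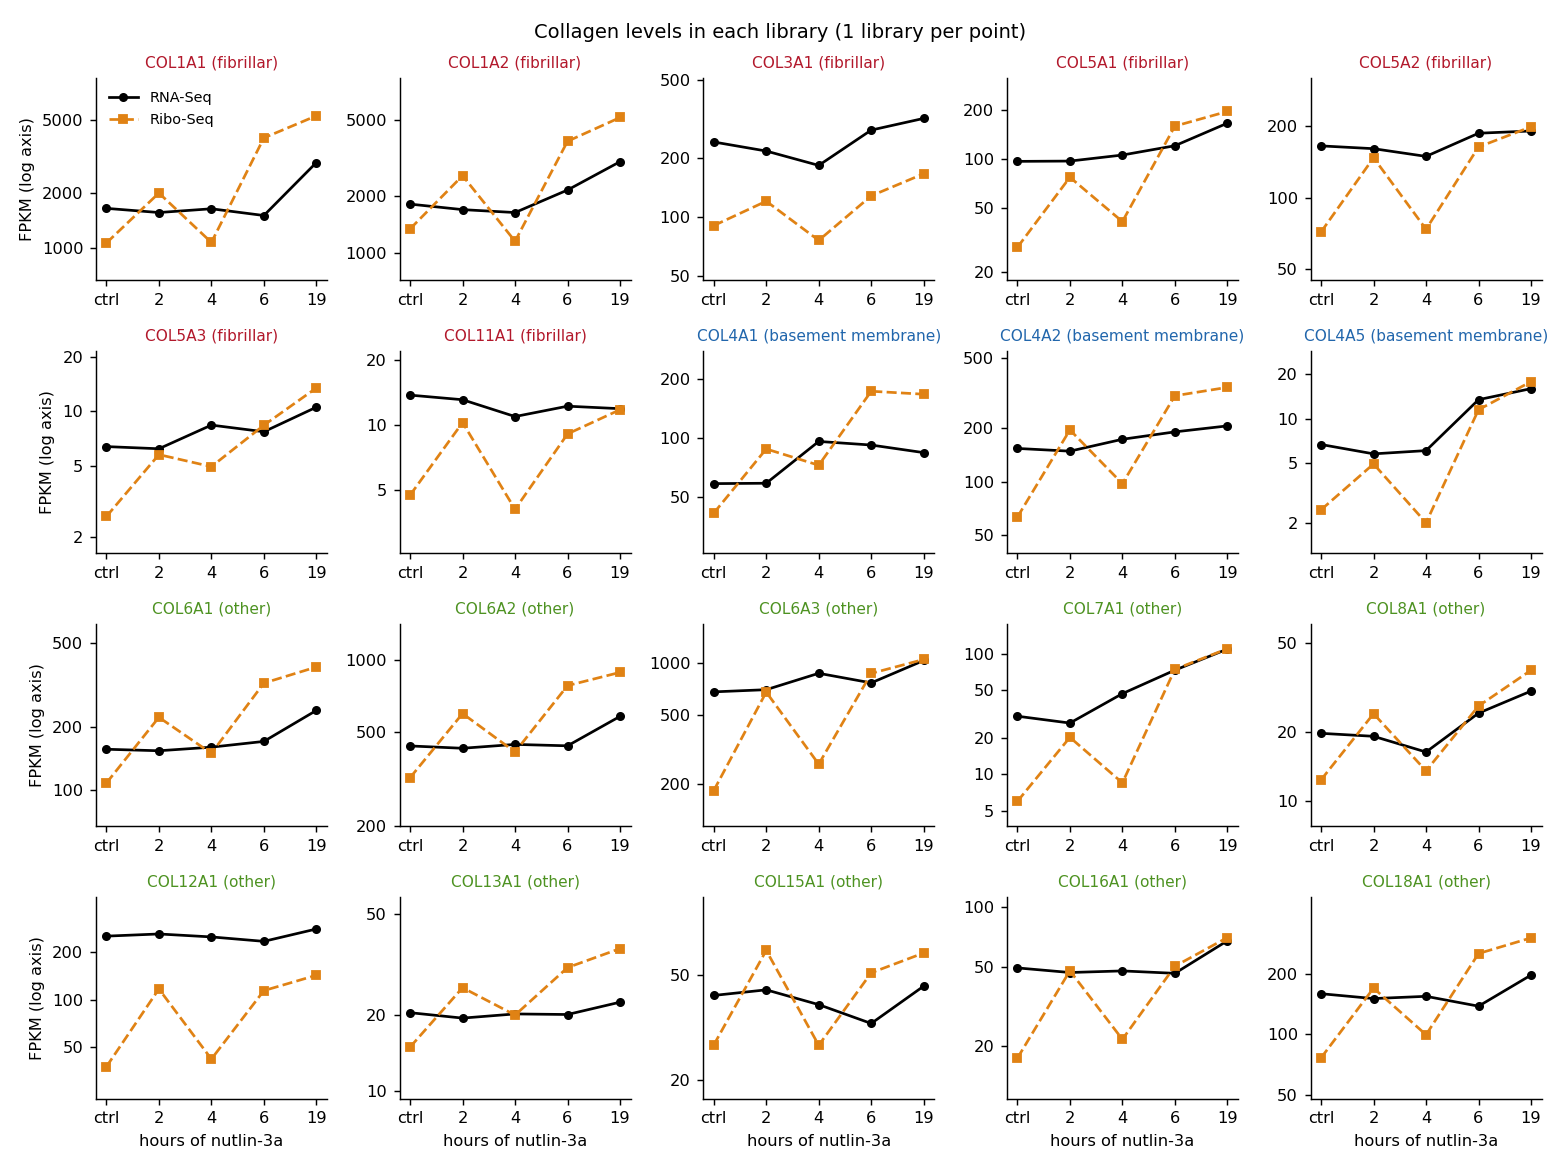
Levels of the 20 collagens that passed the filter, in FPKM on a log axis, in the 5 RNA-Seq libraries (black circles) and the 5 Ribo-Seq libraries (orange squares) of the control (ctrl) and of 2, 4, 6 and 19 h of nutlin-3a, drawn at equal spacing. Each point is 1 library and there are no error bars. In most panels the Ribo-Seq line is high at 2 h, low again at 4 h and high at 6 and 19 h, while the RNA-Seq line changes little before 19 h.

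Collagen transcripts took a larger share of the reads at 19 h in both assays. Over the 25 collagens in both tables, the share of RNA-Seq reads was 4.02% in the control and 3.89%, 4.13%, 4.31% and 6.32% over the treated times. The share of Ribo-Seq reads was 2.13%, 4.53%, 2.24%, 7.20% and 9.24% in the same order. ZNF354B had the most reads in every Ribo-Seq library, and TMC5 was among the next in the control and at 2 and 4 h. The part of such transcripts in the collagen shares was not tested. The 95% binomial confidence intervals (Wilson) of these shares were at most 0.0093 percentage points to either side for RNA-Seq and 0.020 for Ribo-Seq, and they cover counting error only. Collagens thus held a smaller share of ribosome footprints than of mRNA in the control and at 4 h, and a larger share at 2, 6 and 19 h. COL1A1 and COL1A2 made up between 48.0% and 56.9% of the collagen reads in RNA-Seq and between 60.0% and 68.4% in Ribo-Seq. In a bulk sample, more cells making a transcript and more transcript in each cell cannot be told apart.

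**Figure D2:**
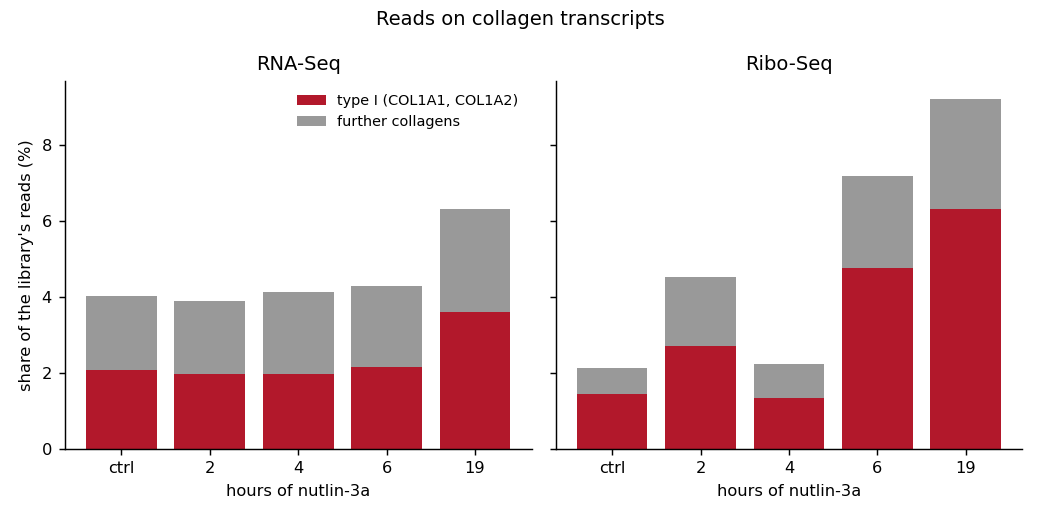
Share of each library's reads that fell on collagen transcripts, in percent, for the type I chains (red) and the further collagens in both tables (grey), by library. The bars reach 6.32% of RNA-Seq and 9.24% of Ribo-Seq reads at 19 h, from 4.02% and 2.13% in the control.

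At the RNA level most collagens differed from the control by less than 2-fold. Of the 20 tested collagens, 0, 0, 2 and 2 were called higher, meaning at least 2-fold over the control library, at 2, 4, 6 and 19 h. Among all 7015 tested genes the share called higher was 0.927%, 1.41%, 1.753% and 2.49%. No collagen was called lower at any time, against 0.0143%, 0.684%, 5.39% and 7.1% of all tested genes. The 2 collagens called at 6 and 19 h were COL7A1, the chain of anchoring fibrils, and COL4A5, a basement membrane chain. With the filter applied to the control libraries, 1 of 17 was called higher at 19 h, COL7A1, against 1.36% of genes. Below this threshold the direction was nearly uniform at 19 h. The median log2 RNA change of the 20 collagens was -0.05, -0.02, 0.17 and 0.49 at the 4 times, and 5, 8, 13 and 19 of them were above 0. The median of all tested genes was -0.05, -0.07, -0.00 and -0.07, and 2482, 2354, 3484 and 3002 of the 7015 were above 0. COL11A1, a minor fibrillar chain, was the exception at 19 h.

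Ribosome density moved much further, and not steadily with time. Called higher were 14, 0, 17 and 19 of the 20 collagens at 2, 4, 6 and 19 h, against 2.12%, 2.58%, 5.26% and 6.22% of all tested genes. Among the 903 tested non-collagen genes with transcripts of at least 5000 nt, the shares were 4.32%, 2.99%, 8.97% and 11.4%. None was called lower, against 0.128%, 0.527%, 8.04% and 14.9% of genes. The median log2 change was 1.11, 0.34, 1.59 and 1.96, whereas that of all tested genes was 0.02, 0.10, -0.02 and -0.19. COL3A1, a fibrillar collagen of soft tissues, was the only tested collagen not called in ribosome density at 19 h.

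TE followed the same course. Called higher were 16, 0, 18 and 18 of the 20 collagens at 2, 4, 6 and 19 h, against 1.14%, 0.87%, 3.21% and 1.94% of tested genes. Among the same 903 long non-collagen genes, the shares were 4.32%, 0.443%, 10.4% and 6.09%. None was called lower, against 0.057%, 0.128%, 2.54% and 4.21%. The median log2 TE change was 1.16, 0.18, 1.41 and 1.51, and that of all genes was 0.04, 0.18, 0.00 and -0.07. All 20 collagens were above 0 at 2, 6 and 19 h, and 17 were at 4 h. Of the 7015 tested genes, 3964, 5140, 3519 and 3118 were above 0 at 2, 4, 6 and 19 h. With the filter applied to the control libraries, 16 of 17 were called higher in density at 19 h (4.51% of genes) and 15 of 17 in TE (1.73%). The 4 comparisons share the control library, so they are not separate evidence.

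**Figure D3:**
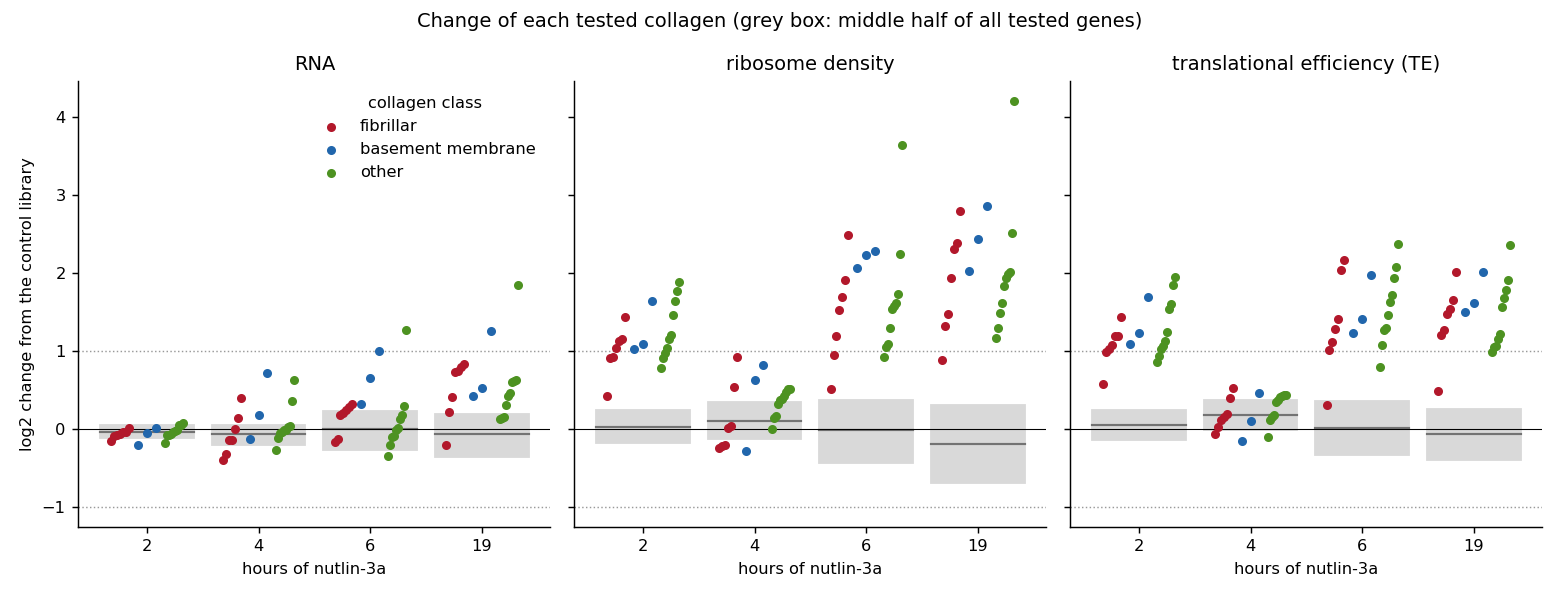
Log2 change from the control library of each tested collagen in RNA, ribosome density and TE at 2, 4, 6 and 19 h, coloured by class. Each point is 1 gene and 1 library pair, dotted lines mark 2-fold, and the grey box and line give the middle quartiles and the median of all 7015 tested genes. The collagens lie near the box in RNA before 19 h and at 4 h in density and TE, and above it at 2, 6 and 19 h in density and TE.

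The level of TE shows the same split. In the control the median TE of the 20 collagens was -1.25, and all 20 were below 0, meaning fewer Ribo-Seq than RNA-Seq FPKM. At 4 h the median was -0.80 and again all 20 were below 0. At 2, 6 and 19 h the medians were 0.10, 0.29 and 0.33, with 11, 15 and 17 collagens above 0. Of the 7015 tested genes, 4435 and 3865 were below 0 in the control and at 4 h. At 2, 6 and 19 h, 2852, 2764 and 2451 of them were above 0. The 903 tested genes with transcripts of at least 5000 nt, collagens left out, had medians of -1.23, -1.001, -1.08, -1.04 and -1.14 in the control and at 2, 4, 6 and 19 h. Collagens therefore sat at the level of other long transcripts in the control library and well above it at 19 h.

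The size of the change depended on the library it was measured from. Against the 4 h library, 19 of 20 collagens were called higher in ribosome density at 19 h (3.59% of tested genes) and 14 of 20 in TE (0.927%). Against the 2 h library, 6 of 20 were called higher in density at 19 h (2.75% of tested genes) and 0 of 20 in TE (0.428%). The median TE change from 2 to 19 h was 0.24, with 17 of 20 above 0 (2453 of the 7015 tested genes). The median RNA change was 0.54, with 19 of 20 above 0 (3158 of 7015). From 4 to 19 h the median RNA change was 0.37, again with 19 of 20 above 0 (3344 of 7015). For the 3 basement membrane collagens the median RNA change was 0.25 from 4 h and 0.52 from 2 h. Median collagen TE was thus closer to that of 19 h in the 2 h library than in the 4 h library. The study's methods describe an effect of the sequencing run and a comparison of each condition with a control of its own run, whereas the labels tie no single library to a run. The study's own sample list places a control directly before its 6 and 19 h nutlin-3a libraries and names none of 2 or 4 h. The part of the run in these values was not tested.

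The TE changes were also set beside transcript length. In non-collagen genes of 5000 to 7000 nt, where 12 of the 20 collagens lie, the median TE change was 0.13, 0.15, 0.11 and -0.01 at the 4 times. The 12 collagens had medians of 1.10, 0.17, 1.34 and 1.48. Among 54 other genes of at least 10000 nt the medians were 0.29, 0.14, 0.40 and 0.27, and the 2 collagens of that length, COL6A3 and COL12A1, had 1.72, 0.16, 1.90 and 1.85. With a straight-line trend over log2 length taken off, 8, 16 and 17 of 20 collagens stayed 2-fold higher in TE at 2, 6 and 19 h, against 0.628%, 2.37% and 2.2% of genes. Among the 20 collagens themselves, the longer ones had larger TE changes. Pearson's r with log2 length was 0.69, -0.36, 0.51 and 0.65 at the 4 times, and Spearman's rho was 0.70, -0.29, 0.53 and 0.74, as a description over 20 genes of the same libraries. The part of length in the collagen changes was not tested.

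**Figure D4:**
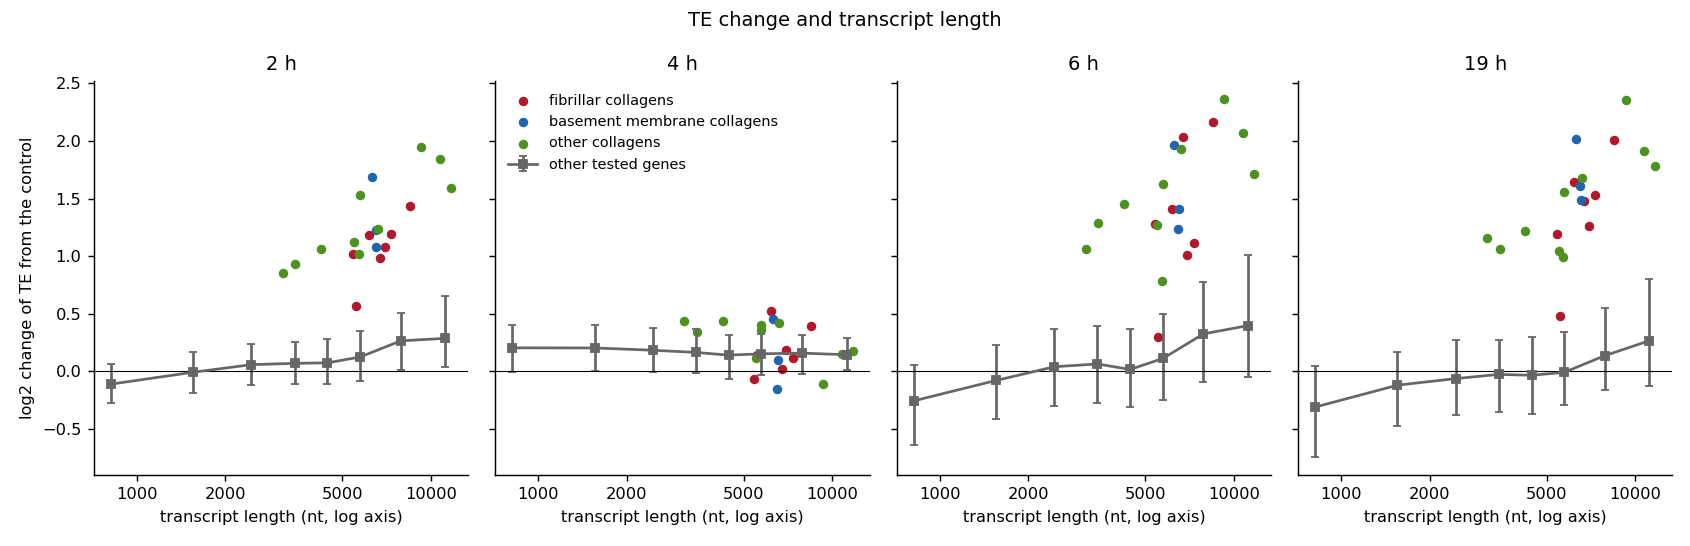
Log2 TE change from the control against transcript length (log axis) at 2, 4, 6 and 19 h. Coloured points are the 20 tested collagens by class, and grey squares with bars are medians and quartiles of the other tested genes in 8 length classes. At 2, 6 and 19 h the collagens lie above other genes of their length and the grey line also climbs with length, whereas at 4 h both are flat.

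Among the 7 fibrillar collagens none was called in RNA at 19 h, against 2.49% of all tested genes called higher and 7.1% lower. The fibrillar changes ran from -0.21 for COL11A1 to 0.83 for COL1A1. The log2 RNA change was 0.83 for COL1A1 and 0.74 for COL1A2, the chains of type I, with counting SEs of 0.0035 and 0.0037. The Ribo-Seq level of COL1A1 was 1063 FPKM in the control and 1992, 1070, 3984 and 5262 FPKM at 2, 4, 6 and 19 h. That of COL1A2 was 1341, 2544, 1156, 3849 and 5124 FPKM. Both were as low at 4 h as in the control, and both were highest at 19 h, 4.95-fold and 3.82-fold above it. Their TE changes at 19 h were 1.48 and 1.20, and that of COL1A1 was larger at 6 h, at 2.04, when its RNA was lowest.

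COL3A1, which joins type I fibrils in skin and vessels, moved least in translation. Its RNA level was 241, 216, 183, 277 and 317 FPKM in the control and at 2, 4, 6 and 19 h. Its Ribo-Seq level was 90.0, 120, 75.7, 128 and 166 FPKM. Both assays were thus lowest at 4 h and highest at 19 h. Its TE change was 0.57, 0.15, 0.30 and 0.48 at the 4 times, the smallest of the 7 fibrillar chains at 2, 6 and 19 h. Its transcript has 5543 nt and that of COL1A2 5414 nt, and the part of length was not tested.

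The type V chains, which sit inside type I fibrils and set their width, differed from each other in RNA. COL5A1 was at 96.9, 97.3, 106, 121 and 167 FPKM in RNA-Seq and at 28.5, 77.3, 41.1, 160 and 197 FPKM in Ribo-Seq. COL5A2 was at 165, 161, 149, 187 and 191 FPKM in RNA-Seq and at 71.6, 147, 73.6, 164 and 199 FPKM in Ribo-Seq. The RNA change at 19 h was therefore 0.78 for COL5A1 and 0.21 for COL5A2, with counting SEs of 0.013 and 0.012. The TE change at 19 h was 2.01 for COL5A1, the largest of the fibrillar class, and 1.26 for COL5A2. COL5A3, a rarer chain of the same type, had 6.37 FPKM in RNA-Seq in the control and 10.6 at 19 h, and 2.60, 5.75, 4.93, 8.38 and 13.5 FPKM in Ribo-Seq. Unlike most collagens its Ribo-Seq level at 4 h was close to that of 2 h.

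COL11A1, a chain best known from cartilage fibrils, had 13.8, 13.1, 10.9, 12.2 and 11.9 FPKM in RNA-Seq. All 4 treated libraries were below the control, and the log2 change at 19 h was -0.21 with a counting SE of 0.042. In Ribo-Seq it was at 4.71, 10.3, 4.05, 9.08 and 11.8 FPKM. Its density was thus called higher at 2 and 19 h, and its TE change at 19 h was 1.53.

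The basement membrane class held COL4A1 and COL4A2, the common chains of type IV collagen, and COL4A5, found in special basement membranes such as those of kidney and skin. COL4A1 was the only one of the 20 tested collagens whose RNA-Seq level was highest at 4 h. It stood at 58.3, 58.5, 95.7, 91.7 and 83.9 FPKM in RNA-Seq, a log2 change of 0.72 at 4 h, 0.65 at 6 h and 0.53 at 19 h. COL4A2 stood at 154, 148, 173, 191 and 206 FPKM, and so its RNA was highest at 19 h, where its change was 0.42. In Ribo-Seq COL4A1 was at 41.2, 87.6, 72.4, 173 and 167 FPKM. COL4A2 was at 62.9, 196, 97.2, 306 and 341 FPKM, and its TE change of 2.01 at 19 h was larger than the 1.49 of COL4A1.

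COL4A5 (ENSG00000188153) was called higher in RNA. Its RNA-Seq level was 6.70, 5.79, 6.09, 13.4 and 15.9 FPKM in order of time. The 2 late libraries were both above the 3 earlier ones. The log2 change was 1.00 at 6 h, just at the threshold, and 1.25 at 19 h with a counting SE of 0.053, from 1035 control reads. In Ribo-Seq it was at 2.44, 4.96, 2.00, 11.5 and 17.7 FPKM, from 186 reads in the control. COL4A6, its neighbour, is below the filter, with 0.851, 0.820, 0.770, 1.31 and 1.70 FPKM in RNA-Seq. Its log2 RNA change without a floor was 0.62 at 6 h and 1.00 at 19 h, with counting SEs of 0.15 at both times. The FPKM ratio of COL4A5 to COL4A6 was 7.87 in the control (95% counting interval 6.58 to 9.41) and 9.33 at 19 h (8.28 to 10.5), so the RNA-Seq intervals overlapped. The Ribo-Seq ratio was 4.58 (3.27 to 6.40) in the control, 14.1 (10.7 to 18.5) at 6 h and 10.8 (8.65 to 13.5) at 19 h, from 42 control reads of COL4A6, and the late intervals lay above that of the control.

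Both type IV pairs start head to head, and the stretch between the starts is shown because the 2 genes on its sides can be read together. The starts of COL4A1 and COL4A2 are 126 bases apart and those of COL4A6 and COL4A5 are 379 bases apart by the RefSeq starts on GRCh38.p14. The first line below gives the whole stretch of the first pair on the plus strand (chr13:110307158-110307283), the second the 300 bases of the other pair nearest to COL4A5 on the plus strand (chrX:108439538-108439837). The third gives the 250 bases before the start of COL7A1, the collagen with the largest RNA change, on its own minus strand (chr3:48595330-48595579). Capitals mark the CCAAT box, the GC box GGGCGG and the TATA box TATAAA, on either strand.
COL4A1/COL4A2: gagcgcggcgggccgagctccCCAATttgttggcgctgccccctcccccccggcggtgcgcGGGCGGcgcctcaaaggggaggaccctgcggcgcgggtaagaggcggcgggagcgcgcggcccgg
COL4A6/COL4A5: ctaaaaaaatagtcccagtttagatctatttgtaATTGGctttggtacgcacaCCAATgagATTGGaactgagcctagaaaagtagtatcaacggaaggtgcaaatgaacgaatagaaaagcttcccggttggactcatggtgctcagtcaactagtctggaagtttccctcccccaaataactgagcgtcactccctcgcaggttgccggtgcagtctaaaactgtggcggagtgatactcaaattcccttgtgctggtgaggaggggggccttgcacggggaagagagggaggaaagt
COL7A1: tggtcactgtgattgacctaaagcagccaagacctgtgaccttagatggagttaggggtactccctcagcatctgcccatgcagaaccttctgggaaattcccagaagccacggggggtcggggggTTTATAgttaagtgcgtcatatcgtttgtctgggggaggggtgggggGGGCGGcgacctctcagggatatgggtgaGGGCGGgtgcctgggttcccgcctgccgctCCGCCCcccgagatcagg

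RefSeq promoters of this build were matched for 14 of the 20 tested collagens by symbol. In the 250 bases before a start, CCAAT or ATTGG was found for 5 of the 14 (COL4A1, COL4A2, COL4A5, COL5A3 and COL11A1) and in 32% of all 35116 promoters of the table. GGGCGG or CCGCCC was found for 11 of the 14 and in 42.6% of all promoters. TATAAA or TTTATA was found for 4 of the 14 (COL6A2, COL7A1, COL13A1 and COL18A1) and in 10.7%. The p53 half-site, a palindrome searched as its consensus, was found for 0 of the 14 and in 5.57% of all promoters. The motifs share no bases with each other in the lines shown. The collagens are counted by gene and the background by promoter. By promoter, GGGCGG or CCGCCC was found in 13 of 16 collagen promoters, CCAAT or ATTGG in 5, TATAAA or TTTATA in 4 and the half-site in 0. COL4A1 and COL4A2 share the stretch between their starts, so its matches count for both genes. These are matches of letters in a short window and say nothing on binding. The genes called in RNA differed in this respect, since the COL4A5 stretch held CCAAT and no GGGCGG, and the COL7A1 stretch held GGGCGG and no CCAAT.

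COL7A1 (ENSG00000114270), whose product anchors epithelium to the tissue below, had the largest RNA, density and TE change of the 20 collagens at 19 h. Its RNA-Seq level was 30.3 FPKM in the control and 26.6, 46.6, 73.0 and 109 FPKM at 2, 4, 6 and 19 h. The 3 libraries from 4 h on were above the control and the next earlier one. The log2 RNA change was -0.19, 0.62, 1.27 and 1.85, with a counting SE of 0.020 at 19 h, or 3.60-fold. In Ribo-Seq it was at 5.97, 20.3, 8.51, 74.2 and 110 FPKM, the last being 18.4-fold above the control. The TE change was 1.95, -0.11, 2.37 and 2.35, and the control rested on 652 Ribo-Seq reads over 9276 nt.

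The type VI chains, which form beaded filaments around cells, shared the pattern with different sizes. COL6A3, the long chain, was at 680, 700, 870, 766 and 1032 FPKM in RNA-Seq and at 183, 678, 260, 869 and 1046 FPKM in Ribo-Seq. COL6A2 was at 435, 425, 441, 435 and 580 FPKM in RNA-Seq and at 319, 596, 410, 782 and 890 FPKM in Ribo-Seq. COL6A1 was at 157, 154, 160, 171 and 240 FPKM in RNA-Seq and at 108, 222, 150, 323 and 386 FPKM in Ribo-Seq. RNA was highest at 19 h for all 3, with changes of 0.60, 0.42 and 0.61. The TE change at 19 h was 1.91 for COL6A3, against 1.06 for COL6A2 and 1.22 for COL6A1.

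Of the chains that decorate fibrils, COL12A1 had the lowest TE of any tested collagen in the control, at -2.76. Its RNA-Seq level was 254, 262, 251, 235 and 282 FPKM and its Ribo-Seq level 37.5, 117, 42.0, 114 and 143 FPKM. Ribosome density thus stayed below the RNA level in every library, while its TE change was 1.78 at 19 h. COL16A1, of the same family, was at 49.6 FPKM in RNA-Seq in the control and 67.8 at 19 h, and at 17.5, 47.9, 21.7, 50.5 and 70.4 FPKM in Ribo-Seq. Its TE change at 19 h was 1.56.

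The multiplexins COL15A1 and COL18A1, proteoglycan-like collagens of basement membrane zones, were both lowest in RNA at 6 h. COL15A1 was at 41.9, 44.0, 38.6, 32.8 and 45.5 FPKM in RNA-Seq, with a log2 change of -0.35 at 6 h and 0.12 at 19 h. COL18A1 was at 159, 150, 154, 138 and 197 FPKM, with changes of -0.21 and 0.31 at the same times. In Ribo-Seq COL15A1 was at 27.1, 62.2, 27.1, 51.1 and 60.8 FPKM and so, unlike the type I chains, no higher at 19 h than at 2 h. COL18A1 was at 76.2, 170, 99.3, 252 and 302 FPKM. Their TE changes at 19 h were 1.05 and 1.68.

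COL8A1, a network-forming chain, was at 19.8, 19.2, 16.4, 24.4 and 30.5 FPKM in RNA-Seq and at 12.4, 24.2, 13.5, 26.2 and 37.7 FPKM in Ribo-Seq. Its TE change at 19 h, 0.99, was just under the threshold. COL13A1, a transmembrane collagen, was at 20.5, 19.5, 20.2, 20.1 and 22.5 FPKM in RNA-Seq and at 15.0, 25.7, 20.0, 30.8 and 36.6 FPKM in Ribo-Seq. Its RNA thus stayed within 0.14 of the control on the log2 scale, while its TE change at 19 h was 1.15.

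Set side by side, the classes overlapped. The median log2 RNA change at 19 h was 0.73 for fibrillar collagens (range -0.21 to 0.83, 7 genes), 0.53 for basement membrane collagens (0.42 to 1.25, 3 genes) and 0.43 for the others (0.12 to 1.85, 10 genes). At 6 h it was 0.20 (-0.17 to 0.32), 0.65 (0.31 to 1.00) and -0.01 (-0.35 to 1.27). At 6 h COL4A1 and COL4A5 were above the range of the fibrillar chains, and at 19 h COL4A5 alone of the type IV chains was. The median TE change at 19 h was 1.48, 1.61 and 1.39, with ranges of 0.48 to 2.01, 1.49 to 2.01 and 0.99 to 2.35. At 4 h it was 0.15, 0.10 and 0.35. These medians include COL5A3, COL11A1 and COL4A5, which passed the filter only through treated libraries. With the filter on the control libraries (5, 2 and 10 genes), the medians at 19 h were 0.74, 0.47 and 0.43 in RNA. In TE they were 1.26, 1.753 and 1.39. With a floor of 5 FPKM the TE changes of COL5A3 and COL4A5 at 19 h were 0.71 and 0.58. With 1 library for each group and classes of few genes, no difference between classes was tested.

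Partner chains of the same protein did not keep a fixed ratio of mRNA or of ribosome density. COL1A1 over COL1A2 was 0.909, 0.921, 1.00, 0.701 and 0.971 in RNA-Seq FPKM. In Ribo-Seq FPKM it was 0.792, 0.783, 0.926, 1.04 and 1.03. The RNA ratio was lowest at 6 h (95% counting interval 0.697 to 0.705), in the library where the Ribo-Seq ratio was at its highest. COL5A1 over COL5A2 went from 0.586 in the control to 0.874 at 19 h in RNA-Seq and from 0.398 to 0.991 in Ribo-Seq. COL4A1 over COL4A2 in RNA-Seq was 0.379 in the control, 0.552 at 4 h and 0.407 at 19 h. The Ribo-Seq ratio was 0.654, 0.744 and 0.489, so at 19 h it was above the control in RNA-Seq and below it in Ribo-Seq.

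In type VI the ratio depended on which chains were compared. COL6A1 over COL6A2, of similar length, was 0.361 in the control and 0.414 at 19 h in RNA-Seq, and 0.339 and 0.434 in Ribo-Seq. COL6A3 over COL6A2, of 10749 and 3461 nt, was 1.56, 1.65, 1.97, 1.76 and 1.78 in RNA-Seq. In Ribo-Seq it was 0.574, 1.14, 0.635, 1.11 and 1.18, low in the control and 4 h libraries and high in the others. The counting intervals cover no variation between cultures.

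**Figure D5:**
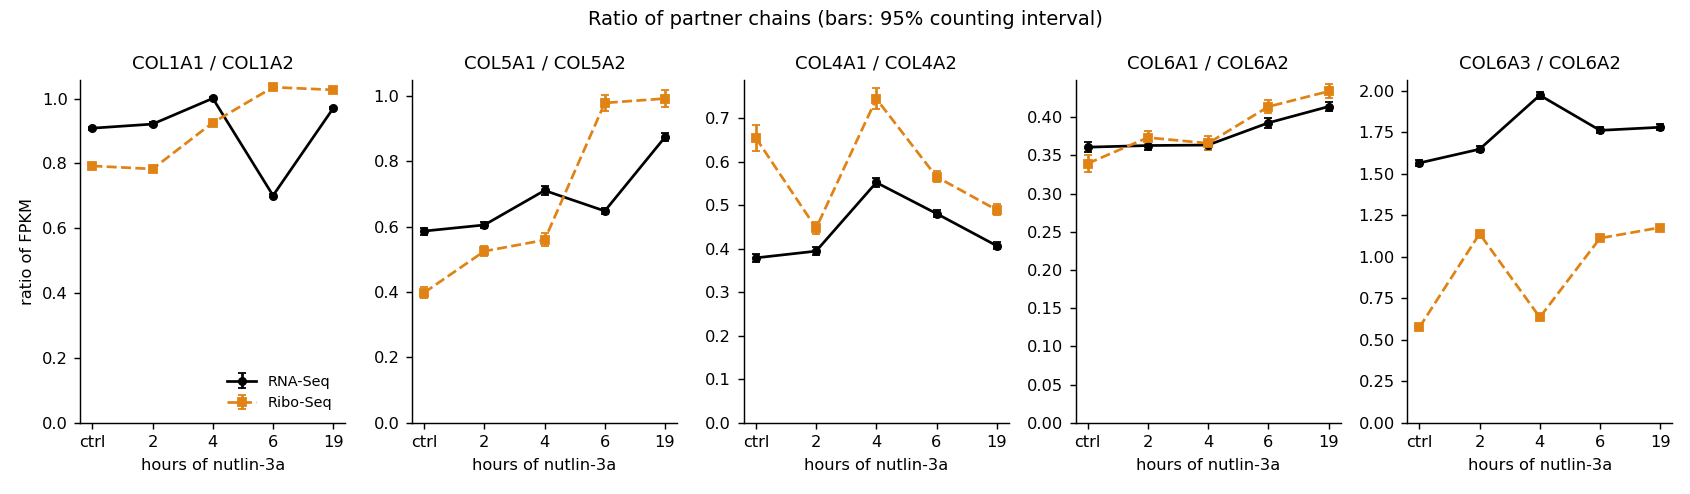
Ratio of FPKM between chains of the same collagen type by library, in RNA-Seq (black circles) and Ribo-Seq (orange squares), with 95% counting intervals as bars and axes from 0. COL6A1 over COL6A2 lies between 0.339 and 0.434 in both assays, whereas the Ribo-Seq ratio of COL6A3 to COL6A2 is near 0.6 in the control and at 4 h and above 1 in the other libraries.

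The collagens below the filter included 11 that stayed under 1 FPKM in every RNA-Seq library: COL11A2, COL24A1, COL4A3, COL4A4, COL6A6, COL9A2, COL9A3, COL10A1, COL17A1, COL21A1 and COL28A1. Among the other 3, COL14A1, a fibril-associated chain, had 1.28 FPKM in the control and 1.73 at 19 h, a log2 change without a floor of 0.44 with a counting SE of 0.13. COL8A2, partner of COL8A1, had 1.43 and 1.07 FPKM, a change of -0.42 with a counting SE of 0.17. The third was COL4A6, given above.

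The genes that modify, fold, trim, crosslink and bind collagens were less affected than the collagens in TE. Of 47 listed genes, 35 were tested. At 19 h 2 of the 35 were called higher in RNA (2.49% of all tested genes), 17 in ribosome density (6.22%) and 3 in TE (1.94%). None of the 35 was called lower in RNA, ribosome density or TE, against 7.1%, 14.9% and 4.21% of all tested genes. Their median log2 change in ribosome density was 0.99, against 1.96 for the collagens. Their median log2 RNA change was 0.45, close to the 0.49 of the collagens, with 34 of 35 above 0 (3002 of the 7015 tested genes). Their median TE change was 0.44, 0.16, 0.57 and 0.48 at the 4 times, with 26 of 35 above 0 at 19 h (3118 of 7015). By group the median TE change at 19 h was 0.43 for 10 hydroxylation genes, 0.42 for 6 folding and export genes, 0.74 for 3 propeptide processing genes, 0.73 for 5 crosslinking genes, 0.20 for 5 fibril regulators and 0.35 for 6 receptors.

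The genes called in TE at 19 h code for FN1, the fibronectin on which collagen fibrils assemble, LOXL2, a crosslinking enzyme, and MRC2, an endocytic collagen receptor. FN1 was at 1249 FPKM in RNA-Seq in the control and at 2114 at 19 h. In Ribo-Seq it was at 147, 476, 220, 696 and 781 FPKM, low in the control and at 4 h as most collagens were, and its TE change at 19 h was 1.65. The TE changes of LOXL2 and MRC2 were 1.25 and 1.03. The genes called in RNA at 19 h were receptors. ITGA2, a collagen-binding integrin chain, was at 34.1, 36.6, 108, 79.7 and 69.3 FPKM in RNA-Seq, highest at 4 h. DDR1, a kinase that collagen activates, was at 5.53, 5.86, 6.70, 9.40 and 11.6 FPKM, highest at 19 h.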

How the data were processed

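The authors used Bowtie to map reads to Ensembl protein-coding transcripts, per the study's methods, and hg19, per the labels. They took a single isoform for each gene and unique hits only, and deposited FPKM with 3 decimals, so reads shared between paralogs were lost. Strand was not stated, so antisense reads cannot be told apart. The table named for RNA and ribosome profiling was read as RNA-Seq, since 27 of 27 histone transcripts in both tables were lower in it. Both tables proved to be divided by the same transcript length. The methods count Ribo-Seq reads in the coding sequence whereas the column names say total, so TE may depend on reads outside the coding sequence. The study reports fewer Ribo-Seq reads starting in the codon frame in its nutlin-3a series than in its other Ribo-Seq libraries. Within that series, the control had a lower share of reads in the coding sequence than the treated libraries. The part of this in collagen TE was not tested. The deposited FPKM values are whole reads scaled to length and library total, and these were recovered from their spacing for 11211 transcripts (99.6%), after a test on simulated data. They gave counting SEs and entered no test.

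FPKM were floored at 1, and log2 ratios taken to the control library. Called means at least 2-fold and tested genes are the 7015 that reached 5 FPKM in some library of both assays. Every tested collagen is described, further collagens are given by range, and of the 47 biosynthesis genes those called in RNA or TE at 19 h are named. The members and lists were chosen with earlier results of these data known. The leukocyte, chondrocyte and other marker lists served only to check the cell type. Alternatives changed the baseline, floor, filter, scaling, length and cut-off. Python 3.11.15, numpy 2.4.6, pandas 2.3.3 and scipy were used, and each group has 1 library, so none could be left out.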

Additional observations from a re-analysis of the deposited data

Results flagged for a closer look

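The RNA of COL3A1 was marked because it lay on opposite sides of the control at different times, by more than 1.25-fold and beyond its counting error at both. Its log2 change was -0.40 at 4 h (183 FPKM against 241 in the control) and 0.40 at 19 h (317 FPKM). It was the only tested collagen to do so in RNA, ribosome density or TE. No test of the difference was possible with 1 library at each time.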

How the results depend on the processing

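No collagen was called lower in RNA, ribosome density or TE at 19 h under the 9 alternatives chosen at the start. The share of all genes called lower under them was 5.06% to 14.6% in RNA, 5.37% to 29.8% in density and 2.11% to 15.6% in TE. The number called higher in density at 19 h (19 of 20) was 6 of 20 with the 2 h library as baseline (2.75% of genes). That in TE (18 of 20) was 0 of 20 with the same baseline (0.428%). Under the further alternatives the number in density ran from 15 of 20 with the sliding cut-off (1.91%) to 20 of 20 at 1.5-fold (15%). In TE it ran from 14 of 20 with the 4 h library as baseline (0.927%) to 19 of 20 at 1.5-fold (9%). The collagens numbered 17 with a mean of at least 20 FPKM or the control-library filter, and 25 with no filter. The number called higher in RNA (2) was 1 of 17 with a mean of at least 20 FPKM (2.07% of genes), 1 of 20 with the sliding cut-off of the study's kind (1.61%), 1 of 17 with the filter on the control libraries (1.36%) and 9 of 20 at 1.5-fold (7.13%). The filter on the control libraries and the 4 h baseline were chosen after seeing the data.

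The median changes at 19 h stayed above 0 throughout. With the 2 h library as baseline they were 0.77 in RNA for fibrillar and 0.49 for other collagens, and in TE 0.34 for fibrillar, 0.38 for basement membrane and 0.14 for other collagens. With the 4 h library they were 0.65, 0.25 and 0.37 in RNA, and in TE 1.27 for fibrillar and 1.07 for other collagens. With the median of all genes taken off they were 0.80, 0.59 and 0.50 in RNA and 1.54 in fibrillar TE, and with the length trend taken off 0.88, 0.68 and 0.59 in RNA, and in TE 1.35 for fibrillar and 1.49 for basement membrane collagens. With log2(FPKM + 1) they were 0.65 in fibrillar RNA, and in TE 1.36 and 1.47 for fibrillar and basement membrane collagens. A floor of 5 FPKM gave 1.26 and 1.49 for the same TE medians, and no filter gave 0.56 in fibrillar RNA and 1.37, 1.49 and 1.19 in TE. A mean of at least 20 FPKM and the control-library filter both gave 0.47 in basement membrane RNA and 1.26 and 1.753 in fibrillar and basement membrane TE. With types VII, XV and XVIII moved to the basement membrane class, its RNA median was 0.47 and the TE median of the others 1.22.

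Of the single genes, the TE change of COL15A1 reversed to -0.079 from the 2 h library, and those of COL3A1 and COL8A1, not called, also fell below 0. The cause was not tested. The lowest read number behind a tested collagen was 186, in the Ribo-Seq control.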

Other observations

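COL2A1, the main collagen of cartilage, was listed in the Ribo-Seq table alone, at 0.067, 0.083, 0.041, 0.039 and 0.178 FPKM in the control and at 2, 4, 6 and 19 h. Of the chondrocyte markers, SOX9 and MATN3 were listed in the RNA-Seq table, and the list summed to between 2.44 and 4.79 FPKM over the 5 libraries.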
